A study of Homo sapiens with 4 samples.

Results

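The MYC and MAX network is a group of transcription factors that share a basic helix-loop-helix leucine zipper and bind DNA as dimers. MYC, MYCN and MYCL pair with MAX and activate genes of growth and ribosome assembly, while MNT, MXI1, MXD3 and MXD4 pair with the same MAX and recruit corepressors to the same E-box sequence. MLX is a MAX-like factor that pairs with the glucose-responsive factors MLXIP (MondoA) and MLXIPL, and MYCNOS is an RNA transcribed from the opposite strand of the MYCN locus. In neuroblastoma, amplification of MYCN marks high-risk disease. The 10 members studied were chosen by gene symbol, as MYCN, MYC, MYCL, MYCNOS, MAX, MNT, MXI1, MXD3, MXD4 and MLX, and each symbol matched 1 of the 64252 rows of the deposited table.

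The data are RNA sequencing counts of SK-N-BE(2) cells, an established human neuroblastoma line with amplified MYCN. The tested cells carried a hairpin against CDK5RAP3 (shCDK5RAP3), a partner of the UFM1 ligase at the endoplasmic reticulum, and the comparison cells a control hairpin (shControl), with 2 libraries in each group. No source used here gives the hairpin sequences, how many hairpins or clones were used, or when the cells were harvested. The labels do not say that libraries came from separate cultures, so p-values measure only the spread between these libraries, which may be technical. Library totals ran from 28653689 to 30138393 counts.

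Before the members, the libraries were checked against their labels. CDK5RAP3 had 1669 and 1689 counts in the shCDK5RAP3 libraries, against 2529 and 2866 in the shControl libraries, and its level was 62.1% of control (edgeR adjusted p = 0.000163). The chi-square per degree of freedom was 7.51 between the shCDK5RAP3 libraries and 9.67 between the shControl libraries, above the 1 that counting noise gives, and 89.1 to 102 for libraries of different groups. Noradrenergic neuroblastoma markers were present, with summed levels of 1888 and 1967 CPM (counts per 1000000 of the scaled library total) in shCDK5RAP3 cells and 3109 and 3396 CPM in shControl cells, and 8 of 9 were lower, against 21.8% of all tested genes. Fibroblast markers were present too, and 4 of 5 were lower, with sums of 155 to 166 CPM in shCDK5RAP3 cells and 452 to 470 CPM in shControl cells. Leukocyte, endothelial, epithelial and Schwann cell markers summed to at most 7.53 CPM per list in any library, with CD3E, CDH1 and SOX10 at 0 counts in all of them. The part of these marker shifts in the results below was not tested, and in bulk RNA fewer cells of a type cannot be told apart from less RNA per cell.

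MYCN fell, as did the counts of its antisense RNA MYCNOS, which may hold MYCN reads where their exons overlap. MYCL, at a low level in both groups, fell too, and MYC rose but stayed the lowest of the 10. The MAX-binding repressors MXI1, MXD4 and MXD3 fell, and MNT, MAX and MLX were not called. Calls used edgeR's quasi-likelihood test across 18775 genes, with a Benjamini-Hochberg adjusted p under 0.05. By this rule 6 of the 10 members were lower and 1 was higher, while 21.8% of all tested genes were lower, 19.7% were higher and 41.5% were called in either direction. The members were picked with earlier results of these data known, so this count is a description. Without shCDK5RAP3 replicate 1 or replicate 2 the genes called numbered 4836 and 3752, against 7792 with all libraries, while 6 and 5 members were lower and 0 and 1 higher. Of the members, 3 were both called and at a log2 fold change of -1 or lower (MYCL, MYCNOS and MXI1), against 7.29% of all tested genes. The 2 groups did not overlap in 7 of the 10 members, a share near the 71.4% of all tested genes. All 10 passed the filter on low counts, MYC only through its shCDK5RAP3 libraries, so that its call depends on the group in which it is higher.

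**Figure D1:**
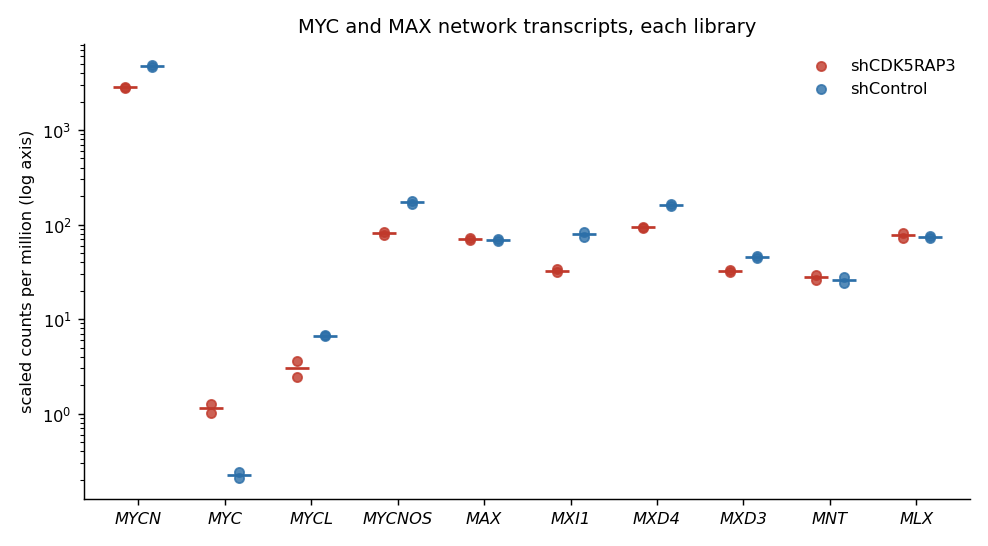
Scaled CPM of each member in each library, on a log axis, with shCDK5RAP3 (red) left of shControl (blue). Points are libraries and dashes are group means. MYCN lies at 2810 and 2878 CPM in shCDK5RAP3 cells and at 4669 and 4915 CPM in shControl cells, above every other member.

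Promoter sequence was examined first, because the dimers of this network bind the E-box CACGTG and because several members fell together. RefSeq promoters (GRCh38.p14, 250 bases before to 50 after the gene start) were found for 9 of the 10 members, and CACGTG, which reads the same on both strands, lay in those of MNT, MXD4 and MLX. The motif is in 7.26% of the 35116 promoters of the same length. The stretches around it are shown 5′ to 3′ on the gene's strand, with the E-box in capitals, because they show that a repressor gene that fell and 2 members that were not called carry the same motif:
MXD4 (chr4:2262330-2262359, minus strand): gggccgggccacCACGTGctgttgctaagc
MNT (chr17:2401236-2401265, minus strand): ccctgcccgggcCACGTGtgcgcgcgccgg
MLX (chr17:42567038-42567067, plus strand): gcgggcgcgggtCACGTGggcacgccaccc

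The E-box starts 238 bases before the gene start in MXD4, 193 in MNT and 50 in MLX. MXD4 fell, and MNT and MLX were not called. Whether the motif has a part in these changes was not tested. MYCN, MYCL, MYCNOS, MXI1 and MXD3, which fell, and MAX, which was not called, had no CACGTG in any of their 10 listed windows. The MYCN promoter held TTTGGCGC, 1 form of the site of E2F factors, which are known to drive MYCN in neuroblastoma cells. It starts 176 bases before the gene start and is shown in capitals:
MYCN (chr2:15940363-15940392, plus strand): agcaagtggctTTTGGCGCgaaagccttgg

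TTTGGCGC was searched on both strands and is in 0.652% of all promoters. A match of letters is a description and not evidence of binding.

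MYCN (ENSG00000134323, GRCh38 chromosome 2, 15940564 to 15947007, plus strand) is the amplified oncogene of this line. It had 80317 and 85225 counts in the shCDK5RAP3 libraries, against 135190 and 143038 in the shControl libraries. The groups did not overlap. The level was 2844 ± 47.8 CPM in shCDK5RAP3 cells and 4792 ± 175 CPM in shControl cells (SD, n = 2 each), or 59.3% of control (log2 fold change -0.75, SE 0.05; edgeR adjusted p = 6.74e-06). This call held under all 14 other settings tried, with log2 fold changes between -0.79 and -0.72.

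MYC, the founding member of the family, had 36 and 30 counts in the shCDK5RAP3 libraries, against 6 and 7 in the shControl libraries. The level was 1.14 ± 0.174 CPM in shCDK5RAP3 cells and 0.224 ± 0.0236 CPM in shControl cells (SD, n = 2 each; log2 fold change 2.32, SE 0.47). The groups did not overlap. MYC passed the filter on low counts only through its shCDK5RAP3 libraries, so these values and its call are a description. The call was lost without shCDK5RAP3 replicate 1, where the log2 fold change was 2.17. MYCL, described first in small-cell lung cancer, had 103 and 72 counts in the shCDK5RAP3 libraries and 196 and 192 in the shControl libraries. It fell to 45.1% of control (log2 fold change -1.15, SE 0.23; edgeR adjusted p = 0.0035; 0.0561 with no filter on low counts). Its shCDK5RAP3 libraries differed more than its shControl libraries, at 3.6 and 2.43 CPM against 6.77 and 6.6 CPM.

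MYCN was the source of nearly all MYC-family reads in every library, with or without the hairpin against CDK5RAP3. It made up 99.83% and 99.88% of the summed MYCN, MYC and MYCL counts in the shCDK5RAP3 libraries, and 99.85% and 99.86% in the shControl libraries. MYC made up 0.0447% (95% exact binomial interval 0.0313% to 0.0619%) and 0.0352% (0.0237% to 0.0502%) in the shCDK5RAP3 libraries. In the shControl libraries it made up 0.00443% (0.00163% to 0.00965%) and 0.00489% (0.00197% to 0.0101%). These intervals cover counting error only and do not test the groups. MYC passed the filter on low counts only through its shCDK5RAP3 libraries, so its shares are a description.

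MYCNOS (ENSG00000233718, chromosome 2, 15921037 to 15942249, minus strand) has been described as an antisense RNA that overlaps the start of MYCN. It had 2216 and 2464 counts in the shCDK5RAP3 libraries and 4812 and 5160 in the shControl libraries. It fell to 46.8% of control (log2 fold change -1.10, SE 0.07; edgeR adjusted p = 7.9e-06), and the groups did not overlap. For every 100 MYCN counts there were 2.76 and 2.89 MYCNOS counts in the shCDK5RAP3 libraries and 3.56 and 3.61 in the shControl libraries. An exact permutation test of this ratio gave a two-sided p of 0.33, the smallest that 2 against 2 libraries allow.

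The MYCNOS values are uncertain, because its exons share 98 bases with those of MYCN in GENCODE 29 and no source used here says whether the counting used strand. Those bases are 3.77% of the MYCN exons and 4.06% of the MYCNOS exons. If MYCN reads were spread evenly, they would hold 3025 and 3210 MYCN counts in the shCDK5RAP3 libraries and 5092 and 5387 in the shControl libraries. Both pairs exceed the MYCNOS counts themselves. Without strand, reads of MYCN and MYCNOS there cannot be told apart.

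MAX, the partner that MYC factors and repressors share, was not called. It had 1955 and 2156 counts in the shCDK5RAP3 libraries and 1960 and 2067 in the shControl libraries. The groups overlapped, and the log2 fold change was 0.03 with an SE of 0.07 (edgeR adjusted p = 0.801). MLX, the partner of the MondoA branch, had 2066 and 2400 counts in the shCDK5RAP3 libraries and 2070 and 2222 in the shControl libraries (log2 fold change 0.05, SE 0.08; edgeR adjusted p = 0.628). Of the MLX exons 18.1% are shared with PSMC3IP on the opposite strand, a gene that rose (log2 fold change 0.71, edgeR adjusted p = 0.000461), so the MLX value is uncertain.

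Of the 4 repressors, MXI1 had the lowest fold change. MXI1 (ENSG00000119950, chromosome 10, 110207605 to 110287365), which recruits the SIN3 corepressor, had 903 and 991 counts in the shCDK5RAP3 libraries, against 2411 and 2147 in the shControl libraries. Its level was 32.5 ± 1.32 CPM in shCDK5RAP3 cells and 78.5 ± 6.7 CPM in shControl cells (SD, n = 2 each), or 41.4% of control (log2 fold change -1.27, SE 0.09; edgeR adjusted p = 1.07e-05). The groups stood well apart, and the call held under all 14 other settings, between -1.36 and -1.18.

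MXD4 (ENSG00000123933, chromosome 4, 2247432 to 2262294), a repressor linked to differentiation and growth arrest, had 2621 and 2813 counts in the shCDK5RAP3 libraries and 4512 and 4761 in the shControl libraries. It fell to 58.4% of control (log2 fold change -0.77, SE 0.06; edgeR adjusted p = 3.13e-05), also under all 14 other settings. The share left was close to that of MYCN, at 59.3%. Among 6360 other protein-coding genes with a mean log2 CPM of at least 5, MXD4 was the second nearest to MYCN in its pattern over the 4 libraries. The distance was 0.0252 on the log2 scale, after centring each gene on its own mean. ETV5, an ETS factor, was nearest at 0.0214, and GCH1, PLEKHH3 and STARD4 followed at 0.0399, 0.0445 and 0.0478. The order rests on only 4 libraries in 2 groups and is a description.

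MXD3 is a repressor gene whose protein has been tied to proliferating cells. It had 955 and 935 counts in the shCDK5RAP3 libraries and 1269 and 1340 in the shControl libraries. It fell to 72.3% of control (log2 fold change -0.47, SE 0.08; edgeR adjusted p = 0.00212), and the groups did not overlap. Without shCDK5RAP3 replicate 2 the adjusted p was 0.0531. The MXD3 exons overlap those of PRELID1 on the opposite strand over 22.5% of their length and those of RAB24 on the same strand over 18%. PRELID1 rose (log2 fold change 0.63, edgeR adjusted p = 0.00188; 0.0532 without shCDK5RAP3 replicate 2) and RAB24 was not called (0.10), so the MXD3 value is uncertain.

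MNT, the repressor expressed in most cell types and held to be a general counterweight to MYC, was not called. It had 839 and 770 counts in the shCDK5RAP3 libraries and 816 and 699 in the shControl libraries. These overlapped, and the log2 fold change was 0.08 with an SE of 0.11 (edgeR adjusted p = 0.59). The rest of the network, MXD1, MGA, MLXIP and MLXIPL, was read from a list of its own. MXD1, a repressor of the same family, fell by 0.64 on the log2 scale (edgeR adjusted p = 0.00581), with 310 and 275 counts in the shCDK5RAP3 libraries and 472 and 437 in the shControl libraries. Without shCDK5RAP3 replicate 2 its adjusted p was 0.0779. MGA, a large MAX-binding repressor, had 122 and 117 CPM in shCDK5RAP3 cells and 113 and 93.9 CPM in shControl cells and was not called (log2 fold change 0.21, edgeR adjusted p = 0.0863; 0.00225 without shControl replicate 1 and 0.00372 with the replicate number as a block).

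**Figure D2:**
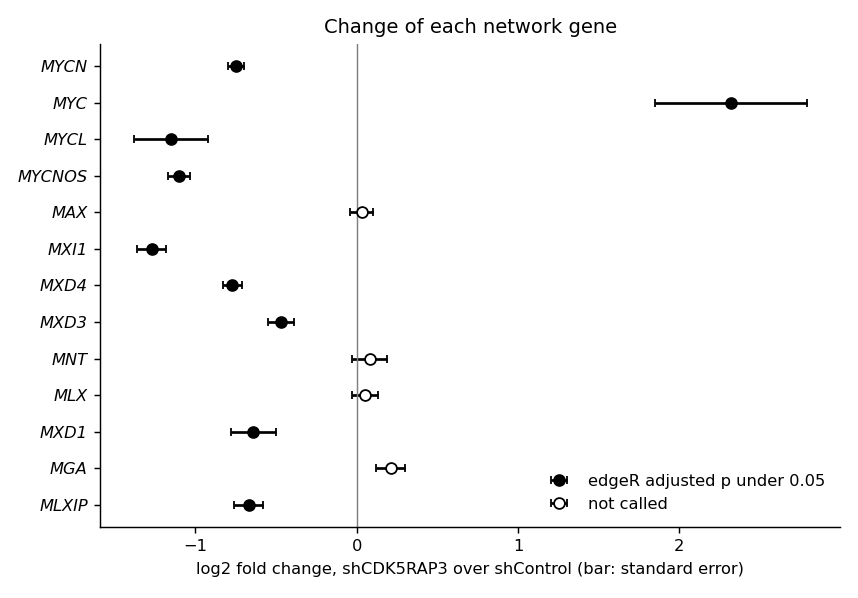
Log2 fold change of each network gene, shCDK5RAP3 over shControl, with bars of 1 standard error. Filled points passed an edgeR adjusted p of 0.05. MYCN, MYCL, MYCNOS, MXI1, MXD4, MXD3, MXD1 and MLXIP lie left of 0, MYC lies at 2.32, and MAX, MNT, MLX and MGA are open points near 0.

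Levels of different members were compared per kilobase of annotated exon. In shCDK5RAP3 cells the order was MYCN (1093 CPM per kb), MYCNOS (33.3), MLX (18), MAX (15.9), MXD4 (13.2), MXI1 (7.06), MXD3 (6.3), MNT (3.17), MYCL (0.596) and MYC (0.379). No neighbours in that order overlapped between their 2 libraries. In shControl cells MXD4 (22.6) stood above MLX (17.4), MXI1 (17) and MAX (15.7), whose neighbours overlapped. MXD3 (8.72), MNT (2.99), MYCL (1.32) and MYC (0.0746) followed below them, under MYCN (1842) and MYCNOS (71.2). MXD4 stood above MLX and MAX in shControl cells and below them in shCDK5RAP3 cells. Per kilobase of the longest transcript, however, MAX (22.4) and MXD4 (22.1) overlapped in shCDK5RAP3 cells. MYC was the lowest member in both groups. The levels of MYCNOS, MLX and MXD3 may hold reads of genes that overlap their exons, so their places in the order are uncertain.

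Summed by role, the MYC factors and the 4 repressors among the members stood at 59.4% and 57.9% of their shControl levels, while MAX overlapped between the groups. The 3 MYC factors together had 1081 and 1107 CPM per kb in shCDK5RAP3 cells and 1796 and 1891 in shControl cells. Nearly all of this sum is MYCN. MYC and MYCL alone had a mean sum of 0.975 CPM per kb in shCDK5RAP3 cells and 1.39 in shControl cells, or 69.9%. The 4 repressors together had 29.7 and 29.8 CPM per kb in shCDK5RAP3 cells and 51.9 and 50.9 in shControl cells. Leaving out MXD3, whose exons overlap other genes, the repressor sum was 55% of control, and leaving out MNT instead it was 54.9%.

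MAX had 15.4 and 16.4 CPM per kb in shCDK5RAP3 cells and 15.3 and 16 in shControl cells. The MYC factors per repressor were 36.4 and 37.1 in shCDK5RAP3 cells and 34.6 and 37.2 in shControl cells, which overlap. This ratio covers only MNT, MXI1, MXD3 and MXD4 as repressors. MXD1 (mean 1.58 CPM per kb in shCDK5RAP3 cells and 2.47 in shControl cells) and MGA (6.78 and 5.86) were left out. A ratio with them was not computed and may differ. Relative to MAX, the MYC factors stood at 70 and 67.3 in shCDK5RAP3 cells and 118 in each shControl library. The repressors per MAX were 1.92 and 1.81 in shCDK5RAP3 cells and 3.4 and 3.17 in shControl cells. For the role sums of MYC factors and repressors, and for both ratios to MAX, the groups did not overlap and the exact two-sided permutation p was 0.33, the smallest possible. For MYC factors per repressor the exact p was 1.

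**Figure D3:**
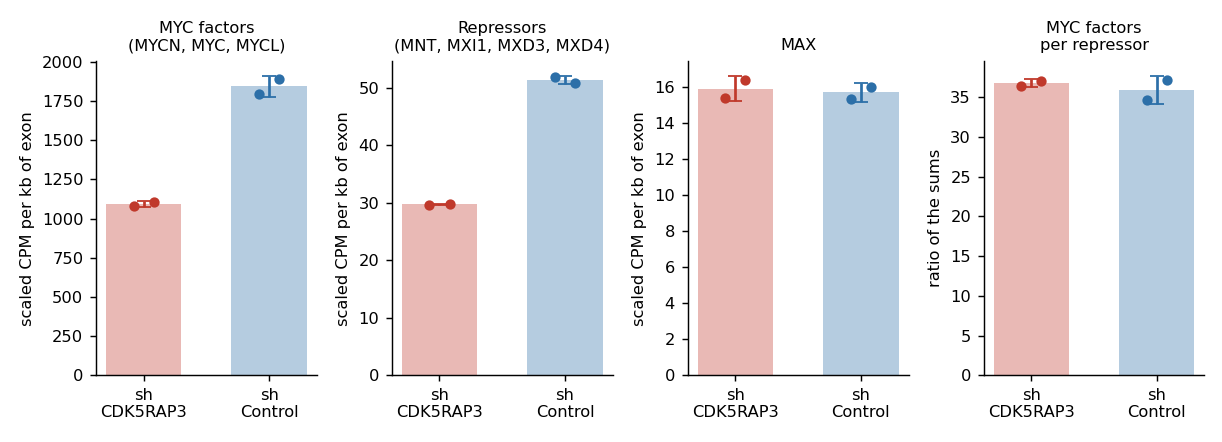
Summed level per kilobase of exon of the MYC factors, the repressors MNT, MXI1, MXD3 and MXD4 (without MXD1 and MGA), and MAX. The last panel is the ratio of the first sum to the second, and shCDK5RAP3 (red) is left of shControl (blue). Bars are means, points are libraries and error bars are SD (n = 2). The first 2 sums are lower in shCDK5RAP3 cells, while MAX and the ratio overlap between groups.

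The MondoA branch was followed through MLXIP, which pairs with MLX, and through the direct targets TXNIP and ARRDC4, arrestin-like proteins that curb glucose uptake. MLXIP fell, with 117 and 97.9 CPM in shCDK5RAP3 cells and 173 and 168 CPM in shControl cells (log2 fold change -0.67, edgeR adjusted p = 0.000335). TXNIP fell too, with 85.2 and 84.3 CPM in shCDK5RAP3 cells and 133 CPM in each shControl library (log2 fold change -0.65, edgeR adjusted p = 6.32e-05). ARRDC4 had 4.86 and 4.22 CPM in shCDK5RAP3 cells and 14.5 and 12.5 CPM in shControl cells (log2 fold change -1.57, edgeR adjusted p = 0.000125). MLXIPL (ChREBP) had 0 and 4 counts in the shCDK5RAP3 libraries and 2 and 3 in the shControl libraries, too few to test. The MLX transcript itself was not called, as given above.

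Genes around MYCN on chromosome 2 were read beside it, since an amplified segment can carry neighbours. The 4 nearest tested neighbours were not called by the main test. GACAT3, 103 kb after MYCN, had 40 and 57 counts in the shCDK5RAP3 libraries and 71 and 70 in the shControl libraries (log2 fold change -0.54, edgeR adjusted p = 0.151). DDX1, an RNA helicase gene 309 kb before MYCN that is often co-amplified in neuroblastoma, had 307 and 323 CPM in shCDK5RAP3 cells and 301 and 312 CPM in shControl cells (log2 fold change 0.04, SE 0.06; edgeR adjusted p = 0.647). NBAS, at 379 kb, stood at -0.12 (adjusted p = 0.353; -0.26 and 0.0213 without shControl replicate 2). CYRIA, at 602 kb, stood at -1.11 with 14 and 24 counts in the shCDK5RAP3 libraries and 33 and 49 in the shControl libraries (edgeR adjusted p = 0.0584; 0.0456 without shControl replicate 1 and 0.0356 with the replicate number as a block). MYCNUT, 4.55 kb from MYCN, had 0 counts in every library. Farther out, VSNL1 (1.80) and RRM2 (0.55) rose, GREB1 (-0.98) fell, and TRIB2 (-0.15) and SMC6 (-0.08) were not called. TRIB2 passed by library size alone (edgeR adjusted p = 0.0401) and with the block (0.0193). Of the 9 neighbours tested 2 were higher and 1 was lower, or 33.3% called, against 41.5% of all tested genes.

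Of 20 coactivator genes 5 were higher and 2 lower, or 35% called against 41.5% of all tested genes, with a median log2 fold change of 0.01. Among the higher were RUVBL2 (0.51), an ATPase of the TIP60 complex, WDR5 (0.48), a chromatin anchor of MYC, and SUPT5H (0.37), an elongation factor. TRRAP (-0.36), the scaffold that MYC contacts, and the acetyltransferase gene KAT2A (-0.28) were lower. Of 9 corepressor genes HDAC2 (0.21) was higher and the histone chaperones RBBP4 (-0.27) and RBBP7 (-0.18) were lower. That is 33.3% called, also below the 41.5% of all tested genes. Of these 8 genes only WDR5 kept its call in edgeR with each library left out in turn. Without shCDK5RAP3 replicate 2 the adjusted p was 0.0691 for RUVBL2, 0.339 for TRRAP, 0.0769 for KAT2A, 0.215 for HDAC2, 0.0947 for RBBP4 and 0.127 for RBBP7. Without shCDK5RAP3 replicate 1 it was 0.0565 for SUPT5H, 0.0725 for TRRAP, 0.149 for KAT2A, 0.0668 for HDAC2, 0.072 for RBBP4 and 0.306 for RBBP7. TRRAP had 0.141 and RBBP7 0.0539 without shControl replicate 1, and RBBP7 had 0.0699 without shControl replicate 2. With either shCDK5RAP3 library left out fewer genes of both lists were called, as were fewer of all tested genes.

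Among 18 genes listed as acting on MYC proteins, mainly on their turnover, 7 were higher and 5 lower, with a median of 0.04. That is 66.7% called, against 41.5% of all tested genes. The higher ones included CIP2A (0.87), an inhibitor of the phosphatase PP2A, FBXL14 (0.48), a ubiquitin ligase subunit, and PLK1 (0.46), a kinase that stabilises MYCN. The lower ones included FBXO32 (-1.42) and FBXO28 (-0.95), both ubiquitin ligase subunits, and PPP2CA (-0.54), the catalytic subunit of PP2A. Without shCDK5RAP3 replicate 2 FBXL14 lost its call (edgeR adjusted p = 0.0859). The list then counted 3 higher and 5 lower, with 3752 of all genes called, and without shCDK5RAP3 replicate 1 it counted 4 higher and 4 lower, with 4836 of all genes called.

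Of 64 genes that MYC factors are known to activate, many of them in ribosome assembly, 29 were higher, 13 lower and 22 not called, or 65.6% called. Of all tested genes 19.7% were higher, 21.8% lower and 41.5% called. The list's median log2 fold change was 0.17, against -0.0034 over all tested genes. DUSP2 (1.70), a phosphatase with 4.72 and 4.69 CPM in shCDK5RAP3 cells and 1.11 and 1.79 CPM in shControl cells, TCOF1 (0.78), a nucleolar factor of ribosomal RNA transcription, and PPAN (0.74), a ribosome assembly factor, led the rises. RCL1 (-0.65), a factor of ribosomal RNA processing, MAP3K6 (-0.61), a stress kinase, and LDHA (-0.58), the lactate dehydrogenase subunit, led the falls. For MAP3K6 the edgeR adjusted p was 0.222 with shCDK5RAP3 replicate 2 left out and 0.109 with shControl replicate 2 left out. With either shCDK5RAP3 library left out fewer genes of the list were called, as were fewer of all tested genes. The list was written with earlier results of these data known. No list was matched to all tested genes in expression level, and what level adds to the shares called was not tested.

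Genes that MYC factors are known to repress went both ways, with 4 of 15 higher and 5 lower and a median of -0.10. That is 60% called, against 41.5% of all tested genes. Of the 4 higher, CDKN2B passed the filter on low counts only through its shCDK5RAP3 libraries, so these counts are a description. CLU (1.16), a secreted chaperone, had 83.1 and 81.8 CPM in shCDK5RAP3 cells and 36.6 and 37.1 CPM in shControl cells. CDKN1B (0.34), a cell-cycle inhibitor, and DKK1 (0.22), a Wnt inhibitor, were higher as well. TGM2 (-1.29), a transglutaminase that MYCN represses in neuroblastoma, had 11.7 and 9.56 CPM in shCDK5RAP3 cells and 27.2 and 24.8 CPM in shControl cells. NDRG2 (-0.60) was also lower. With either shCDK5RAP3 library or shControl replicate 1 left out fewer genes of the list were lower, and without shCDK5RAP3 replicate 2 fewer were higher. In each of these fits fewer of all tested genes were called too. In edgeR without shCDK5RAP3 replicate 2 the adjusted p was 0.0717 for CDKN1B and 0.186 for DKK1, and DKK1 had 0.0756 without shCDK5RAP3 replicate 1.

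**Figure D4:**
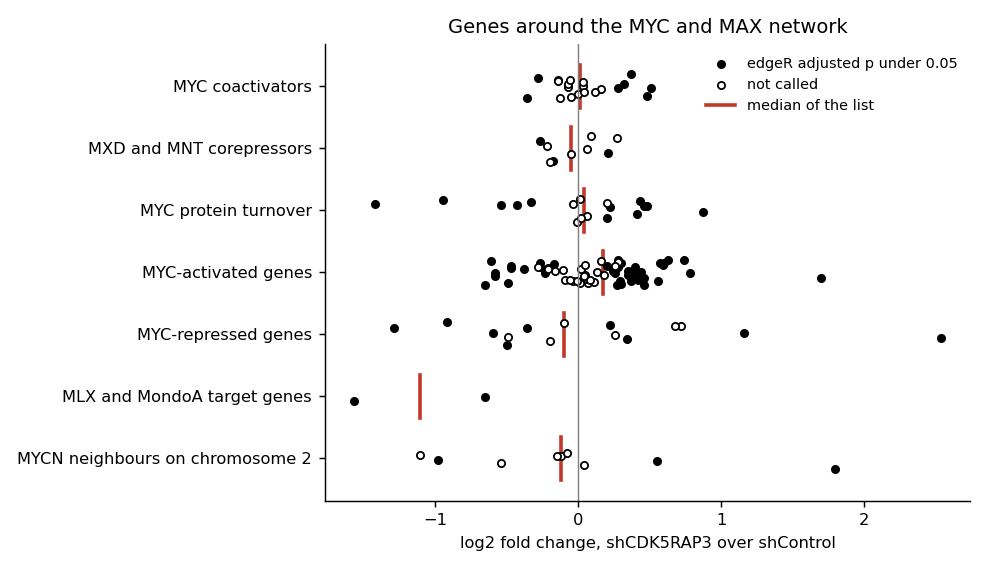
Log2 fold change, shCDK5RAP3 over shControl, of every tested gene of 7 lists around the network. Filled points passed an edgeR adjusted p of 0.05 and red lines are list medians. MYC-activated genes spread around a median of 0.17, while TXNIP and ARRDC4 lie at -0.65 and -1.57.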

How the data were processed

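Per the labels, RNA isolated with TRIzol went into TruSeq libraries. What the authors deposited is a matrix of unscaled counts, whole numbers for each Ensembl gene ID in each of 4 libraries. HISAT2 2.2.0, StringTie and hg38 are named in the submitters' processing notes, with no roles. No source used here names the annotation release, the strand setting or how multimapping reads were handled.

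Of 64252 rows, 56591 matched GENCODE 29 (GRCh38) or a table of gene names; the others stayed in library sizes and tests. Tests were run in R 4.3.3 with edgeR 4.0.16 (TMM factors, filterByExpr, quasi-likelihood test, adjustment over 18775 genes, threshold 0.05). The filter asks for about 0.348 CPM in 2 libraries. A standard error is the log2 fold change over the square root of F, and CPM uses TMM-scaled library totals. Levels per kb use the union of GENCODE 29 exons. DESeq2 1.42.0 and limma 3.58.1 were alternatives. The functions were tested on simulated data.

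Replicate numbers were not treated as pairs: deviations of same-numbered libraries correlated at 0.0534. Members, lists and tests were chosen with earlier results of these data known. Named genes were all members, CDK5RAP3, all genes of the rest of the network, the MondoA targets and the MYCN neighbours, the 5 genes nearest to MYCN in pattern, and up to 3 of the largest called rises and falls of each other list with a mean log2 CPM of at least 1. Genes that overlap members were named for the overlap. The values of 1 gene that this rule names are not reported here.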

Additional observations from a re-analysis of the deposited data

How the results depend on the processing

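All 7 member calls kept their direction under the 14 alternatives that could test them, and MYCN, MYCNOS, MXI1 and MXD4 kept their calls throughout. MYCL had an adjusted p of 0.0561 without a filter, and the stricter filter (CPM of at least 1 in 2 libraries) removed MYC and left 0 members higher. Over the 59 genes named, 17 of 48 calls were lost under some alternative.

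In the main fit 7792 genes passed, and of the 139 tested genes of the 8 lists 47 were higher and 32 lower. Without a filter 4488 genes passed, and 27 genes of the 8 lists were higher and 20 lower. At a threshold of 0.01, 5235 genes passed, and 20 genes of the lists were lower. With 1 library left out in turn, genes passing ran from 3752 to 7329 and members higher from 0 to 1. Genes of the lists then ran from 18 to 47 higher and from 15 to 32 lower. In those fits the lone library of a group is assumed to vary like the other group. With the replicate block 9148 genes passed and the members' calls were the same 7, while MGA, CYRIA and TRIB2 gained a call. The repressor sum in shCDK5RAP3 cells was 29.9 with RLE factors, 30.1 with upper-quartile factors and 29.5 by library size alone. Per kilobase of the longest transcript 2 members changed rank. Among promoters of tested genes 9.28% held CACGTG.

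Uncalled genes changed sign. MAX was at -0.0036 by library size alone. With 1 library left out in turn, MAX ran from -0.02 to 0.08, MLX from -0.04 to 0.14, MNT from -0.03 to 0.20, DDX1 from -0.0022 to 0.08, NBAS from -0.26 to 0.03 and RAB24 from -0.01 to 0.21. The cause was not tested. MYC, at 6 and 7 counts in the shControl libraries, is limited by depth.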

Other observations

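CDKN2B, the cell-cycle inhibitor p15 that MYC represses through ZBTB17 (MIZ1), lay below the level set for naming genes and was chosen after its values were seen. It had 36 and 41 counts in the shCDK5RAP3 libraries and 7 and 6 in the shControl libraries. It passed the filter on low counts only through its shCDK5RAP3 libraries, so these counts are a description and no test is given. It is 1 of the 4 genes counted as higher among the 15 that MYC factors repress. CDKN1A, the inhibitor p21 of the same list, had 82 counts in each shCDK5RAP3 library and 104 and 126 in the shControl libraries, and was not called (-0.49, edgeR adjusted p = 0.106). For every 10000 MYCN counts there were 4.48 and 3.52 MYC counts in the shCDK5RAP3 libraries and 0.444 and 0.489 in the shControl libraries. MYC too passed the filter only through its shCDK5RAP3 libraries, so this ratio is a description.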
